A study of Mus musculus with 2 samples.

Results

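The 44 genes described here copy DNA or divide the cell and were taken by symbol from an RNA-seq table of 52636 mouse genes. They fall into 18 genes of S phase, 23 genes of G2 and mitosis (G2/M), and the 3 cyclin D genes that act before S phase. All 44 were found in the table, and all 44 reached an FPKM of 1 in both libraries, where FPKM is the number of fragments per kilobase of transcript, scaled to the size of the library. The table holds 1 library of Cd248 null cells, which carry a Cd248 knockout, and 1 library of Cd248 heterozygous cells. Both come from cells described as primary pericytes, the mural cells of small vessels. The cells were derived from tumours of C57BL/6 mice, sorted by flow cytometry, kept on gelatin-coated plates and taken at passages 10 to 12. No wild-type cells were analysed here, so the cells on both sides carry at least 1 mutant copy. The tumour model, the sorting markers, the age of the mice and the number of animals or cultures behind each library were not given in the sources used here. With 1 library per genotype no test was possible, no difference has a replicate check, and each value describes these 2 libraries.

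A cell commits to division when cyclin D with CDK4 or CDK6, and then cyclin E with CDK2, inactivate the retinoblastoma protein and free the E2F factors, which switch on the genes of DNA replication. A second wave follows in G2, when FOXM1 and B-MYB act with the MuvB complex at the CHR element of mitotic promoters. In resting cells the DREAM complex keeps both waves low. Levels of these transcripts in a culture therefore depend both on the share of cells in cycle and on the amount of RNA per cycling cell, and bulk RNA cannot tell these apart.

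The targeted gene fitted the genotypes that the columns were given by the last letter of their codes, on which every direction below rests. Cd248 stood at 0.0592 FPKM in null cells and 20.98 in heterozygote cells, which at its annotated length are about 3 and 1309 reads. The steps between low values showed that 1 FPKM stood for about 19.8 reads per kb of transcript in null cells and 23.9 in heterozygote cells, so the heterozygote library was 1.21 times as deep. The libraries also differed in genes outside the cell cycle. Of 9 epithelial and mesothelial markers, 6 were expressed, and all 6 were lower in null cells by 2-fold or more. Among them were the keratin Krt18 (0.0361 in null, 196 in heterozygote) and mesothelin, Msln (2.10 in null, 234 in heterozygote). Upk3b (0.430 in null, 330 in heterozygote) and Wt1 (0.160 in null, 55.4 in heterozygote) were also among the 6. Of 12 pericyte markers, 8 reached 1 FPKM in 1 or both libraries. Of these, 5 were below 0 on the log2 scale and 3 above, with a median of -0.48. The 5 include Cd248, the targeted gene itself. Acta2, smooth muscle actin, stood at 726 in null cells and 1367 in heterozygote cells, and Cspg4, the proteoglycan NG2, at 2.59 in null cells and 5.02 in heterozygote cells. Pdgfrb ran the other way, at 57.3 in null cells and 8.25 in heterozygote cells. Rgs5 and Kcnj8, which define pericytes in vessels, stayed below 1 in both, and Abcc9 was listed at 0 in both. None of 6 endothelial markers reached 1. Of 7 leukocyte markers, only Cd68 and Csf1r did, and Ptprc, the pan-leukocyte marker, was listed at 0 in the null library and stood at 0.0574 in the heterozygote library. Xist, the RNA of the inactive X chromosome, was at 74.2 in null cells and 0.0133 in heterozygote cells. The 4 Y-linked genes Ddx3y, Eif2s3y, Uty and Kdm5d were listed at 0 in the null library and were present in the heterozygote library, the highest being Eif2s3y at 14.3. Cd248 genotype, sex-linked expression and culture cannot be told apart with these libraries, and their part in the values of the cell cycle genes was not tested.

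Both libraries expressed the whole set at substantial levels, and nearly every member was a little lower in the null library. The lowest level of any member was 7.59 FPKM (Ccne2, null) and the highest 362 FPKM (Pcna, heterozygote). Among the 12773 genes compared, no member ranked below percentile 34.9 in the null library or 42.2 in the heterozygote library. The log2 ratio of null to heterozygote, computed after adding 1 to each FPKM, was below 0 for 40 members and above 0 for 4, with a median of -0.35 that corresponds to a null level 0.785 times the heterozygote level. Over all genes compared, 48.1% were below 0 and the median was 0.03. Only Birc5, which encodes survivin, passed 2-fold, with a ratio of -1.04; over all genes, 13.7% passed 2-fold in either direction, 6.88% lower and 6.84% higher. All members also passed a minimum of 5 FPKM, above which 11.7% of 9749 genes passed 2-fold, 5.36% lower and 6.38% higher. At a 1.5-fold mark, 9 members were lower and none higher, against 12.9% of all genes lower and 15.8% higher. The shift was thus broad and small, with few members standing far from the rest.

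**Figure D1:**
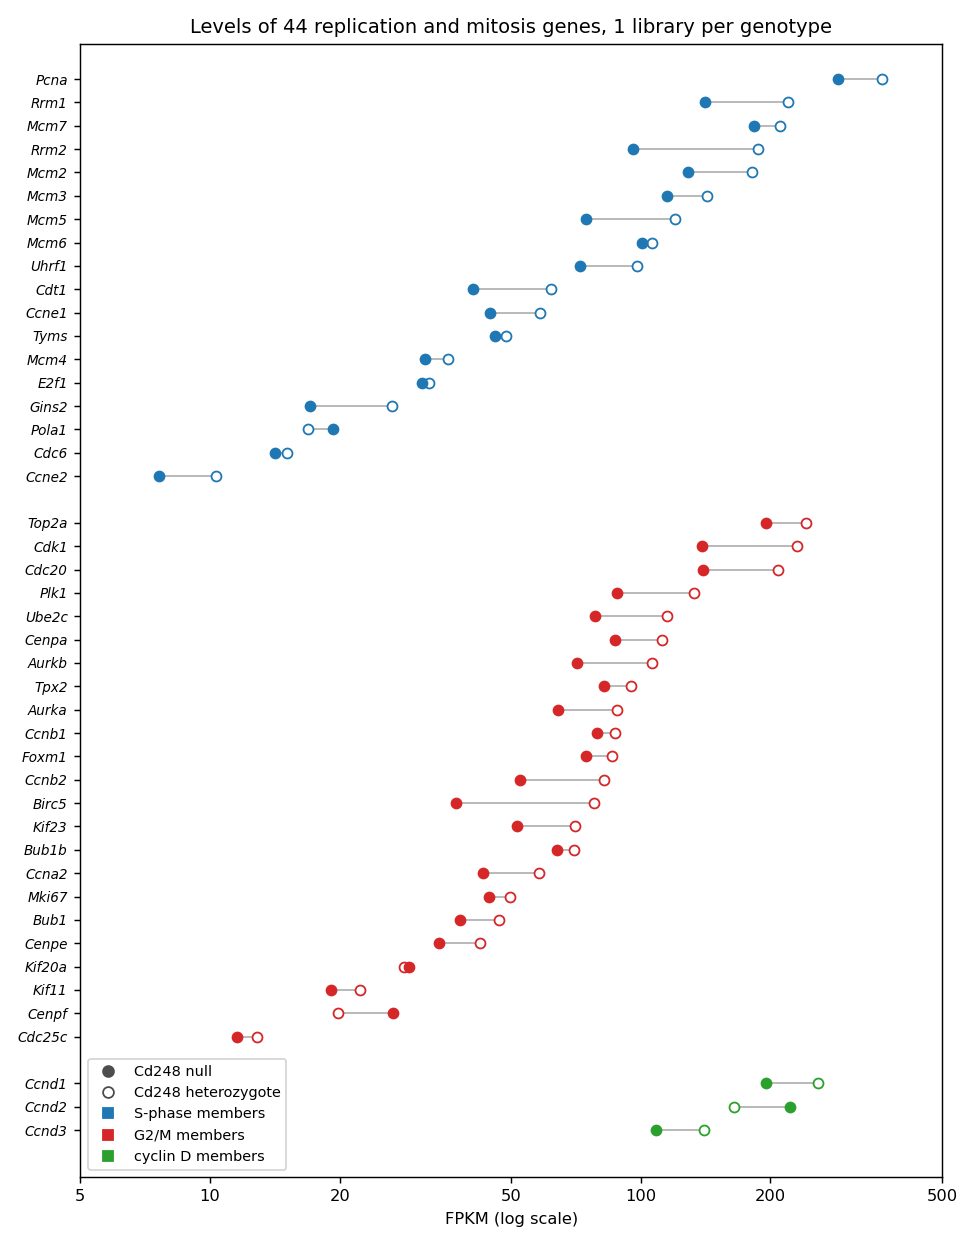
FPKM on a log axis for each of the 44 members, with a filled point for the Cd248 null library and an open point for the Cd248 heterozygote library joined by a line; there is 1 library per genotype and therefore no error bar. The filled point lies left of the open one for 40 members, and right of it for Pola1, Kif20a, Cenpf and Ccnd2.

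The order of the levels was nearly the same in both libraries. Across the 44 members, Spearman's rho between the null and heterozygote FPKM was 0.97, against 0.92 over all 12773 genes compared; these are descriptions across genes, which share 2 libraries. Highly expressed genes in general were also slightly lower in the null library. Among the 2725 genes with a mean FPKM of at least 50, the median log2 ratio was -0.10, and the 30 members in that range had a median of -0.43. Among the 4887 genes with a mean FPKM of 10 to 50, the median was 0.03, and the 13 members there had a median of -0.14.

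The promoters of the members carried the sequence features known for each wave. The windows run from 250 bases before to 50 bases after the start, from RefSeq on GRCm38.p6, and 33 of the 44 members had at least 1. An E2F motif was taken as the letters TTGGCGC, as the variant TTCCCGC, as the variant TTCGCGC or as the variant TTGCCGC. A CHR motif was taken as the letters TTTGAA or as the variant TTTAAA. Both strands were searched, and matches were free to overlap. An E2F motif was found in 10 of 15 S-phase members and 3 of 17 G2/M members, against 10.9% of the 27025 genes in the table. A CHR motif was found in 16 of 17 G2/M members and 5 of 15 S-phase members, against 30.6% of all genes; within 50 bases of the start the numbers were 14 of 17 G2/M members, 3 of 15 S-phase members and 9.54% of all genes. A CCAAT box, the letters bound by NF-Y, was present in 16 of 17 G2/M members and 10 of 15 S-phase members, against 41.1% of all genes. These classes are defined by when the genes act, so the contrast describes them and says nothing of Cd248. A match is only a run of letters in the window.

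Sequences are shown for the members with the lowest and the highest ratio in the S-phase class and in the G2/M class. Ccnb2, the only member with a single annotated transcript, is shown as well, and no cyclin D sequence is. Capitals mark every E2F or CHR match in these windows, and a match on the opposite strand appears as its complement, so that an E2F match can read GCGGCAA.
Rrm2, chr12:24708004-24708303, + strand: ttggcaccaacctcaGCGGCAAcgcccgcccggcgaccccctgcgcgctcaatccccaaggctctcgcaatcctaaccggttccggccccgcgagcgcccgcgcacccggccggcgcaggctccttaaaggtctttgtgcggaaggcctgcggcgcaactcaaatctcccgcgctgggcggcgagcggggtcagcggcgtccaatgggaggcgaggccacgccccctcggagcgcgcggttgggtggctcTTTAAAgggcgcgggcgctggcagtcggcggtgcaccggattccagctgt
Pola1, chrX:93632106-93632405, - strand: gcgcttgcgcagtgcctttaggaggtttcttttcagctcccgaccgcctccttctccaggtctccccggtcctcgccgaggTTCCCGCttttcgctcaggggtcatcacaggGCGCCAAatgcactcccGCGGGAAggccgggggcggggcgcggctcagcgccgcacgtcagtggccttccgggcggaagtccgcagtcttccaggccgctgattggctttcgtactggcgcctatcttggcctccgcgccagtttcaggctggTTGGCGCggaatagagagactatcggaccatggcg
Birc5, chr11:117848987-117849286, + strand: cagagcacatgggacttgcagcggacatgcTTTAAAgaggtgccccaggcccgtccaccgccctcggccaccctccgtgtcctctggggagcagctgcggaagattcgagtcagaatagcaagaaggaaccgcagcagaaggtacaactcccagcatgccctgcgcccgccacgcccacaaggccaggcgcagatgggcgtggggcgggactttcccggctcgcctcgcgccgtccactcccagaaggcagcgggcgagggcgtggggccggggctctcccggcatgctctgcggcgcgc
Cenpf, chr1:189688037-189688336, - strand: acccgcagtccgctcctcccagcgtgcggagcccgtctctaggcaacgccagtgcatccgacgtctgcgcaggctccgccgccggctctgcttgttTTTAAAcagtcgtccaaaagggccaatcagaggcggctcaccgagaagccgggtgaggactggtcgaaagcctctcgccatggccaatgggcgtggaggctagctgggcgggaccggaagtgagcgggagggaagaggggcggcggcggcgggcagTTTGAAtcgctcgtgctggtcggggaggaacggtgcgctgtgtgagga
Ccnb2, chr9:70421505-70421804, - strand: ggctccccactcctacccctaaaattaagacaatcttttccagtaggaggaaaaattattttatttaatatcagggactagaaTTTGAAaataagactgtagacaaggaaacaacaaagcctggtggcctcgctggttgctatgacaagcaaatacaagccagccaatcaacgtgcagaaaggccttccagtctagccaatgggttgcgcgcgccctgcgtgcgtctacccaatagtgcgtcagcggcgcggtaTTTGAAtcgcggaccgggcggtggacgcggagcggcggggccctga
Genes at opposite ends of a class both held the motif typical of that class. Rrm2, the lowest S-phase member, had an E2F match 235 bases before the start and a CHR match at the start itself. Pola1, the highest S-phase member, had 4 E2F matches and no CHR match. Cenpf and Ccnb2 both had TTTGAA within the first bases after the start, at positions 3 and 5, although their log2 ratios were 0.41 and -0.64. In the Birc5 window the only CHR match lay 220 bases before the start. The 16 G2/M members with a CHR match had a median log2 ratio of -0.40, and Bub1, the 1 without, was at -0.29. The 10 S-phase members with an E2F match had a median of -0.37 and the 5 without had -0.34. The 5 S-phase members with a CHR match had a median of -0.49 and the 10 without had -0.14, a split that was not tested.

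Genes of S phase were lower in the null library by a median log2 ratio of -0.36, and 17 of the 18 were below 0, or 13 of 18 when the columns were scaled to an equal sum. None passed 2-fold. The 6 subunits of the MCM2-7 helicase, the ring that unwinds DNA at the fork, were all below 0, apart from Mcm6 when the columns were scaled to an equal sum. Mcm5 had the lowest ratio of the 6, -0.67, at 74.7 FPKM in null cells and 119.9 in heterozygote cells. Mcm2 followed at -0.49, with 128 FPKM in null and 181 in heterozygote cells. The ratio of Mcm3 was -0.30, at 115 FPKM in null and 143 in heterozygote cells. The other 3 subunits lay closer together in the libraries. Mcm7 stood at 183 FPKM in null and 211 in heterozygote cells, a log2 ratio of -0.20. Mcm4 stood at 31.5 FPKM in null and 35.7 in heterozygote cells. Mcm6 stood at 101 FPKM in null and 106 in heterozygote cells, with the ratio closest to 0 of the 6, -0.07.

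The subunits form a ring with 1 copy of each, yet their transcript levels were uneven in both libraries. The most abundant, Mcm7, exceeded the least abundant, Mcm4, 5.82-fold in null cells and 5.90-fold in heterozygote cells. The balance between them differed most for Mcm5 and Mcm6. Mcm5 stood at 0.707 times the mean of the 6 in null cells and 0.903 times in heterozygote cells. Mcm6 stood at 0.953 times the mean in null cells and 0.798 times in heterozygote cells. Mcm2 stood at 1.22 times the mean in null cells and 1.36 times in heterozygote cells. For Mcm7 the values were 1.74 in null and 1.59 in heterozygote cells. Mcm3 (1.09 in null, 1.07 in heterozygote) and Mcm4 (0.298 in null, 0.269 in heterozygote) lay closer together. Such ratios within a library do not depend on the scaling between libraries.

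The loaders and activators of the helicase differed among themselves. Cdt1, the licensing factor that brings the helicase to origins, was at 40.7 FPKM in null cells and 62.0 in heterozygote cells, a log2 ratio of -0.59. Gins2, a subunit of the GINS complex that activates the helicase, was at 17.0 FPKM in null and 26.5 in heterozygote cells, a ratio of -0.61. Cdc6, the ATPase that loads the helicase with Cdt1, was nearly level, at 14.2 FPKM in null and 15.0 in heterozygote cells. The value of Gins2 is uncertain, because 2758 bases of its exons overlap Gse1 on the opposite strand and the counting of strand was not given in the sources used here.

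Among the genes of synthesis at the fork, the replication clamp Pcna was the most abundant member of all, at 286 FPKM in null cells and 362 in heterozygote cells, a log2 ratio of -0.34. Pola1, the catalytic subunit of polymerase alpha, which starts new strands, was the only S-phase member above 0. It stood at 19.3 FPKM in null and 16.8 in heterozygote cells, a log2 ratio of 0.18. Pola1 is also the only member on the X chromosome, whose 408 compared genes had a median ratio of 0.01.

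Rrm1 and Rrm2, subunits of ribonucleotide reductase, the enzyme that makes deoxynucleotides, were among the lower members. Rrm2, the small subunit whose level follows S phase, stood at 95.8 FPKM in null cells and 187 in heterozygote cells. Its log2 ratio of -0.96 was the lowest of the S-phase genes, just inside the 2-fold mark. Rrm1, the large subunit, stood at 141 FPKM in null and 219.6 in heterozygote cells, a ratio of -0.64. The level of Rrm1 was therefore 1.47 times that of Rrm2 in null cells and 1.18 times in heterozygote cells. Tyms, thymidylate synthase, did not share this difference, at 45.9 FPKM in null and 48.7 in heterozygote cells. Rrm2b, another small subunit of the reductase and not a member, went the other way. It stood at 11.2 FPKM in null and 7.79 in heterozygote cells, a log2 ratio of 0.47.

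The cyclin E genes, partners of CDK2 at the entry to S phase, were lower to a like degree. Ccne1 was at 44.7 FPKM in null cells and 58.3 in heterozygote cells, a log2 ratio of -0.38. Ccne2 was at 7.59 FPKM in null and 10.3 in heterozygote cells, a ratio of -0.40. Ccne1 exceeded Ccne2 5.89-fold in null cells and 5.66-fold in heterozygote cells. E2f1, the activator of this gene set, was nearly level, at 31.1 FPKM in null and 32.2 in heterozygote cells. Uhrf1, which brings the maintenance methyltransferase to newly copied DNA, was at 72.2 FPKM in null and 98.1 in heterozygote cells, a ratio of -0.44.

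**Figure D2:**
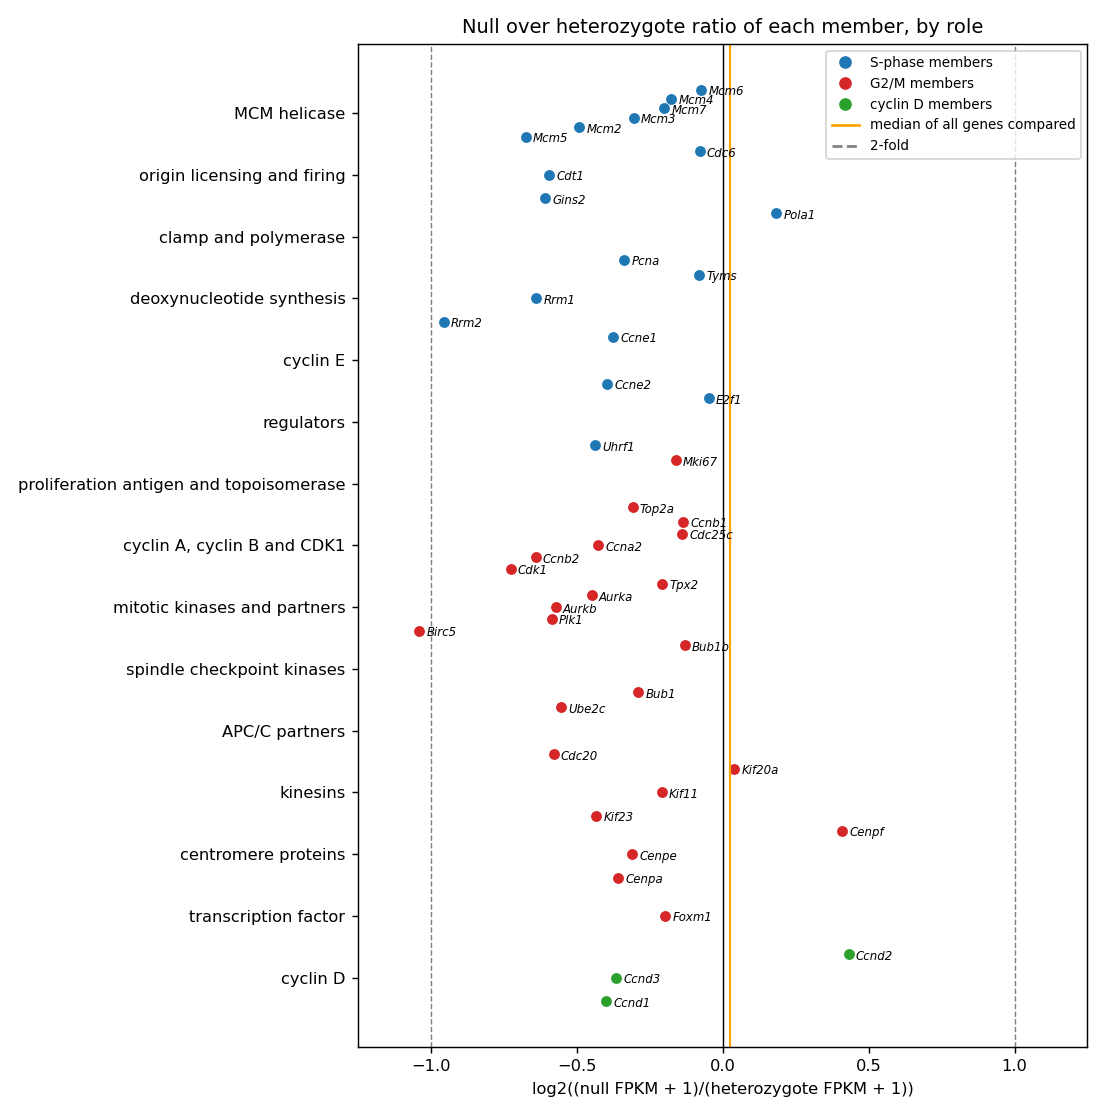
Log2 ratio of null to heterozygote FPKM, each with 1 added, for every member (points, labelled) in rows by role; dashed lines mark 2-fold and the orange line marks the median of all genes compared, 0.03. The S-phase points run from -0.96 to 0.18 and the G2/M points from -1.04 to 0.41, Birc5 alone lies past the 2-fold line at -1.04, and Ccnd2 lies at 0.43 while the other cyclin D genes lie at -0.37 and -0.40.

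Genes of G2 and mitosis were shifted as the S-phase genes were. Their median log2 ratio was -0.31, with 21 of 23 below 0 and 1 past 2-fold. The S-phase median minus the G2/M median was -0.05 and its sign turned when ratios were centred by exon length. The summed FPKM of the G2/M members was 1.07 times that of the S-phase members in null cells and 1.08 times in heterozygote cells. Members are not replicates, so the classes were not tested against each other.

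Mki67, the nuclear antigen used to mark cycling cells, was close to level, at 44.3 FPKM in null cells and 49.7 in heterozygote cells, a log2 ratio of -0.16. Top2a, the topoisomerase that untangles sister chromatids, was at 195 FPKM in null and 242 in heterozygote cells, a ratio of -0.31. The kinase at the centre of mitosis differed more. Cdk1 stood at 139 FPKM in null and 230.3 in heterozygote cells, a ratio of -0.73, second in the class after Birc5. Ccna2, cyclin A2, stood at 43.0 FPKM in null and 58.1 in heterozygote cells.

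The B-type cyclins that activate CDK1 differed unequally. Ccnb2 stood at 52.3 FPKM in null cells and 82.1 in heterozygote cells, a log2 ratio of -0.64. With a single annotated transcript of 1.53 kb, its values could be turned into reads: 1583 for null cells (49.7 to 54.9 FPKM, exact 95% Poisson interval) and 3011 for heterozygote cells (79.2 to 85.1 FPKM). These intervals do not overlap, but they cover counting error only and not the spread between cultures. Ccnb1 stood at 79.3 FPKM in null and 87.1 in heterozygote cells, a ratio of -0.13. Ccnb1 was thus 1.52 times Ccnb2 in null cells and 1.06 times in heterozygote cells. Cdc25c, a phosphatase that activates CDK1, was low in both, at 11.6 FPKM in null and 12.8 in heterozygote cells.

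Mitotic kinases and the chromosomal passenger genes held the single member past 2-fold. Birc5 encodes survivin, which guides Aurora B to centromeres, and stood at 37.3 FPKM in null cells and 77.8 in heterozygote cells, 2.09-fold lower in null cells. Aurkb, the kinase of the same complex, stood at 71.0 FPKM in null and 106 in heterozygote cells, a log2 ratio of -0.57. The nearest member inside the mark was Rrm2, at -0.96. Both Birc5 and Aurkb lie on chromosome 11, whose genes were lower in general, as described with the chromosomes. Plk1, the polo kinase of mitotic entry, was at 88.0 FPKM in null and 133 in heterozygote cells, a ratio of -0.59. Aurka, the centrosomal Aurora kinase, was at 64.2 FPKM in null and 88.1 in heterozygote cells, while Tpx2, its activator on the spindle, was nearer to level, at 81.9 in null and 94.9 in heterozygote cells.

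Of the spindle checkpoint genes of the set, Bub1 lay near the G2/M median of -0.31 and Bub1b was closer to level. Bub1, a kinetochore kinase, was at 38.1 FPKM in null cells and 46.8 in heterozygote cells, a log2 ratio of -0.29. Bub1b, which encodes the checkpoint protein BUBR1, was at 63.8 FPKM in null and 69.9 in heterozygote cells, a ratio of -0.13. The partners of the anaphase-promoting complex, the ubiquitin ligase that the checkpoint restrains, were lower by more. Cdc20, its mitotic activator, stood at 139 FPKM in null and 209 in heterozygote cells, a ratio of -0.58. Ube2c, its ubiquitin-conjugating enzyme, stood at 78.1 FPKM in null and 115 in heterozygote cells, a ratio of -0.55.

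The 3 kinesins, motors of the spindle and midzone, did not share 1 value. Kif23, needed for cytokinesis, was at 51.7 FPKM in null cells and 70.2 in heterozygote cells, a log2 ratio of -0.43. Kif11, which pushes the spindle poles apart, was at 19.1 FPKM in null and 22.3 in heterozygote cells, a ratio of -0.21. Kif20a, a motor of the midzone, was level, at 28.9 FPKM in null and 28.1 in heterozygote cells, but it shares 1271 exonic bases with Cdc23 on the opposite strand. The centromere genes lay on both sides of 0. Cenpf, a large kinetochore protein, was higher in the null library, at 26.7 FPKM against 19.8 in the heterozygote library, a ratio of 0.41. Cenpa, the histone variant that marks the centromere, was at 87.3 FPKM in null and 112 in heterozygote cells. Cenpe, a kinesin of the kinetochore, was at 34.0 FPKM in null and 42.4 in heterozygote cells. Foxm1, the factor that drives many genes of this class, stood at 74.7 FPKM in null and 85.8 in heterozygote cells, a ratio of -0.20.

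The D-type cyclins, which link growth signals to the cycle, split. Ccnd2 had the highest ratio of all 44 members, 0.43, at 222 FPKM in null cells and 165 in heterozygote cells. Ccnd1 stood at 195 FPKM in null and 258 in heterozygote cells, a log2 ratio of -0.40. Ccnd3 stood at 109 FPKM in null and 140.2 in heterozygote cells, a ratio of -0.37. The leading D-type transcript therefore differed: Ccnd2 made up 42.3% of the summed cyclin D FPKM in null cells and 29.3% in heterozygote cells, while Ccnd1 made up 37.1% in null cells and 45.8% in heterozygote cells. Summed over the 3 genes, the level was 526 FPKM in null and 563 in heterozygote cells. None of the 3 passed 2-fold, and with 1 library per genotype the spread of these shares between cultures is unknown.

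A further 230 cell cycle genes in 11 lists were mostly lower too. Of the 228 compared, 9 were past 2-fold lower in null cells and none higher, the median log2 ratio was -0.23, and 171 were below 0. Over all genes compared, 6.88% were past 2-fold lower, 6.84% were past 2-fold higher and 48.1% were below 0. The count of 9 was thus below the share of all genes, and the counts of single lists below are to be read against the same shares. The lists were named for their place in the machinery. The replication fork list, which holds polymerases, clamp loaders and fork proteins, had a median of -0.35 over 30 genes, with 1 lower. Its lowest member was Rnaseh2c, a subunit of the RNase that removes ribonucleotides, at 62.2 FPKM in null and 142 in heterozygote cells. The list of chromatin genes of dividing cells had a median of -0.37 and all 10 genes below 0. Its lowest was H2afz, at 434 FPKM in null and 810.1 in heterozygote cells, and its highest Dek, at 85.5 in null and 86.7 in heterozygote cells. The nucleotide list had a median of -0.27 over 16 genes, and Tk1, the S-phase thymidine kinase, was past 2-fold at 92.0 FPKM in null and 207 in heterozygote cells.

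The lists of origin proteins and of chromosome structure had medians closer to the median of all genes. Origin licensing and firing genes had a median of -0.04 over 19 genes, none past 2-fold, from Orc6 (35.7 FPKM in null, 59.4 in heterozygote) to Orc4 (42.1 in null, 31.0 in heterozygote). Even so, 14 of these 19 were below 0, and their lower quartile was -0.35. The 3 members of the same role, Cdc6, Cdt1 and Gins2, are not in this list and had a median of -0.59. Condensin and cohesin genes had a median of -0.06 over 19 genes, none past 2-fold, from Cdca5, which encodes sororin (14.9 FPKM in null, 23.5 in heterozygote), to the cohesin loader Nipbl (8.73 in null, 5.80 in heterozygote). Cohesin also holds chromosomes together and shapes them outside mitosis.

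The regulators of the G1 decision were mixed. The list of G1 kinases and their inhibitors had a median of -0.32 over 17 genes, with 1 past 2-fold. That gene was Cdkn2b, the inhibitor p15 of CDK4 and CDK6, at 11.1 FPKM in null and 23.7 in heterozygote cells. Its neighbour on chromosome 4, Cdkn2a, had the highest ratio of the list, 0.74, at 95.1 FPKM in null and 56.4 in heterozygote cells. The list of E2F, RB and DREAM genes had a median of -0.26 over 18 genes with 2 lower. Tfdp2, a dimer partner of E2F, stood at 10.3 FPKM in null and 29.0 in heterozygote cells, and E2f8, a repressor E2F, at 7.40 in null and 16.5 in heterozygote cells. The more abundant partner Tfdp1 exceeded Tfdp2 11.4-fold in null cells and 4.54-fold in heterozygote cells.

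**Figure D3:**
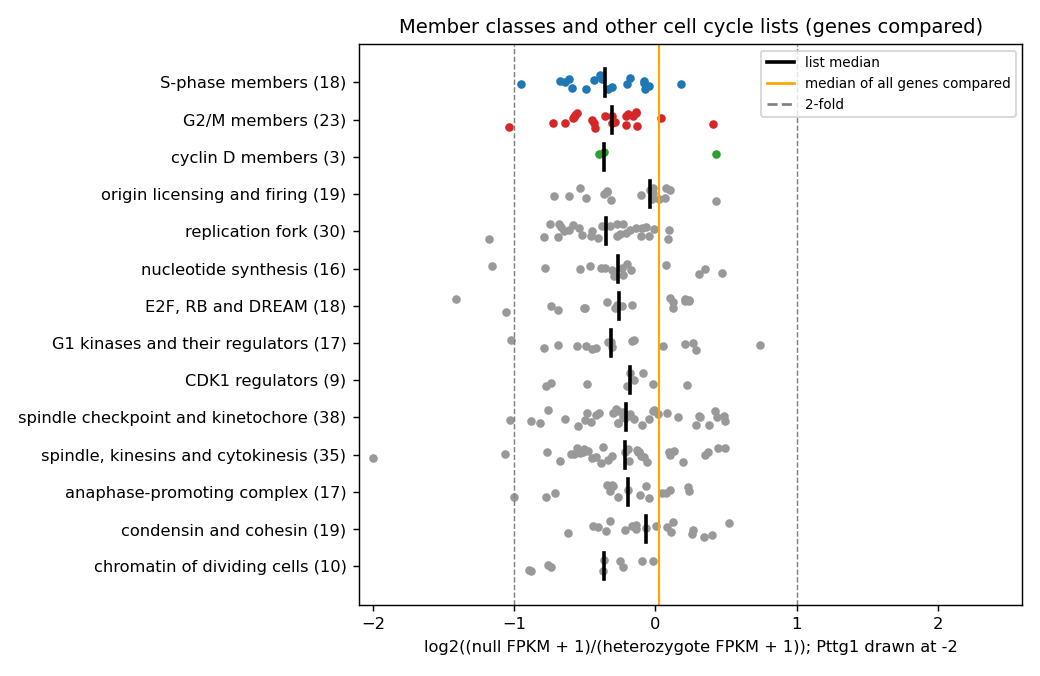
Log2 ratio of null to heterozygote FPKM, each with 1 added, for the genes compared in the 3 member classes and 11 other cell cycle lists (grey points; number of genes in brackets; vertical jitter only for display), with list medians as black bars, the median of all genes in orange and 2-fold as dashed lines. List medians run from -0.37 to -0.04, and Pttg1, with a ratio of -3.94, is off scale and drawn short of its value.

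Regulators of mitotic entry and exit held the gene that differed most. The spindle, kinesin and cytokinesis list had a median of -0.21 over 35 genes with 2 lower. Pttg1 encodes securin, which holds separase inactive until anaphase, and stood at 5.54 FPKM in null cells and 99.3 in heterozygote cells, 17.9-fold lower in null cells. The gene it restrains, Espl1 (separase), was level at 9.89 FPKM in null and 10.7 in heterozygote cells. The other gene of the list past 2-fold was the kinesin Kif18b, at 19.2 FPKM in null and 41.1 in heterozygote cells. Among 38 checkpoint and kinetochore genes the median was -0.21, and Spc24, of the NDC80 complex, was past 2-fold at 38.3 FPKM in null and 79.3 in heterozygote cells. The anaphase-promoting complex list had a median of -0.20 over 17 genes, and Fbxo5, an inhibitor of that complex, was past 2-fold at 43.2 FPKM in null and 87.6 in heterozygote cells. The 9 CDK1 regulators had a median of -0.18 and none passed 2-fold, from Bora, a cofactor of Aurora A, at 9.02 FPKM in null and 16.1 in heterozygote cells, to Mastl, the Greatwall kinase, at 7.52 in null and 6.29 in heterozygote cells.

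The chromosome on which a gene lies went with its ratio. Over all genes compared, the median log2 ratio per chromosome ran from -0.27 on chromosome 11 (1074 genes) to 0.41 on chromosome 1 (748 genes). On chromosome 1, 79.1% of all genes compared were above 0, and on chromosome 11, 28.4% were. Cell cycle genes were split likewise: on chromosome 1, 11 of 15 were above 0 with a median of 0.32, while on chromosome 11, 3 of 16 were above 0 with a median of -0.58. Over the other 18 chromosomes, 47 of 241 cell cycle genes were above 0, with a median of -0.26. DNA copy number was not measured, and its part in these values was not tested.

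Cenpf, the highest G2/M member, lies on chromosome 1, and its ratio of 0.41 equals the median of that chromosome. Of the 8 genes of the checkpoint, kinetochore and spindle lists on chromosome 1, 7 were above 0, between 0.32 and 0.49. The exception was Sgo2a, a protector of centromeric cohesion, at 3.57 FPKM in null and 4.22 in heterozygote cells, a ratio of -0.19. Nuf2, of the NDC80 complex, was at 52.1 FPKM in null and 36.8 in heterozygote cells, and Kif14, a midbody kinesin, at 10.1 in null and 6.87 in heterozygote cells. Hjurp, the chaperone of CENPA, was at 139 FPKM in null and 99.1 in heterozygote cells. The S-phase members of the same chromosome, Mcm3 and Mcm6, were below 0 and thus further from its median, by -0.71 and -0.48. On chromosome 11 lie Birc5, Aurkb, Top2a and Cdc6, together with Tk1, Kif18b and Pttg1. Of the 10 cell cycle genes past 2-fold, 4 are on this chromosome. It holds 16 of the 272 cell cycle genes compared and 1074 of the 12773 genes compared. Relative to the median of its chromosome Birc5 was at -0.77, and Rrm2, on chromosome 12, passed 2-fold. Of the 44 members, 40 lay below the median of their own chromosome, with a median difference of -0.41. Without this centring the median log2 ratio of the members was -0.35. The part of chromosome position in these ratios was not tested.

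**Figure D4:**
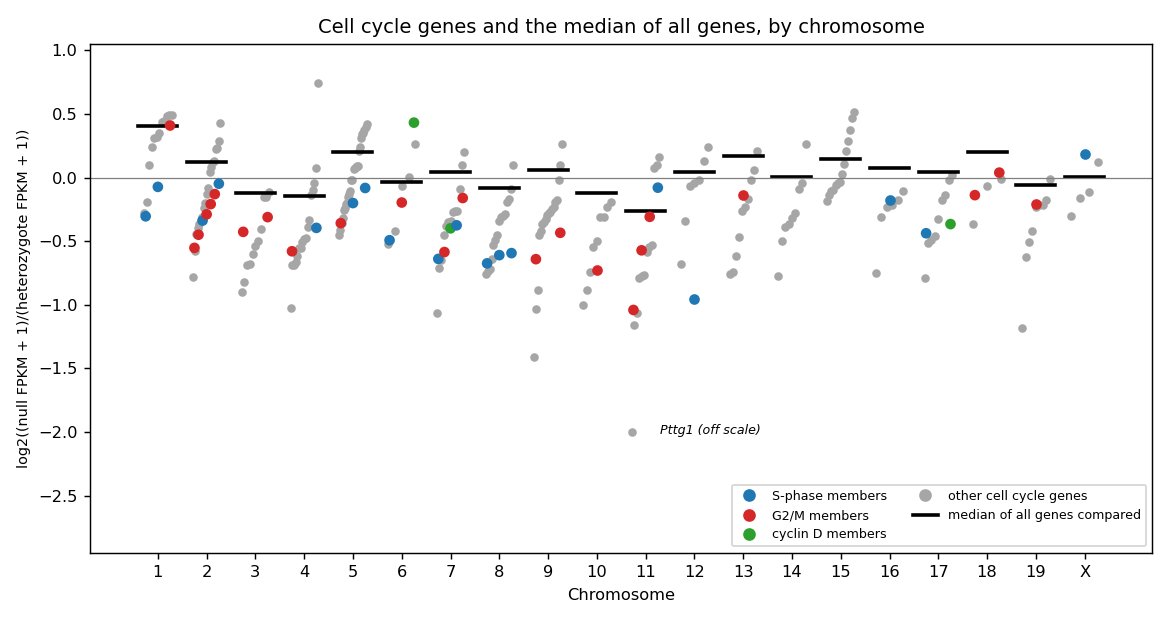
Log2 ratio of null to heterozygote FPKM, each with 1 added, of the members (coloured by class) and the other cell cycle genes (grey) on each chromosome, with the median of all genes compared as a black bar; horizontal spread within a chromosome is by rank only. Most points lie below the bar of their chromosome, the bar is highest on chromosome 1 (0.41) and lowest on chromosome 11 (-0.27), and Pttg1 (-3.94) is off scale and drawn short of its value.

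The length of the transcript also went with the ratio. Over 11628 protein-coding genes in 5 equal bins of summed exon length, the median log2 ratio was -0.17 in the shortest bin (median 1.81 kb), and then -0.04, 0.01, 0.05 and, in the longest bin (median 10.1 kb), 0.20. The members followed this in the shorter bins and not in the longest. The 5 in the shortest bin had a median of -0.58, the 10 in the next -0.47, the 15 in the middle bin -0.21 and the 5 in the fourth -0.21, but the 9 in the longest bin had a median of -0.31. Spearman's rho between ratio and exon length was 0.46 over the 44 members and 0.19 over the protein-coding genes, as descriptions across genes of the same 2 libraries. Cenpf has the longest exons of all the members, and Ccnb2 the shortest. The part of transcript length in these ratios was not tested. After centring on genes of like length, the median of the members was -0.38, with 40 of 44 still below 0 and none past 2-fold. The 4 above 0 were then Ccnd2 at 0.30, Cenpf at 0.18, Pola1 at 0.05 and Kif20a at 0.01.

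**Figure D5:**
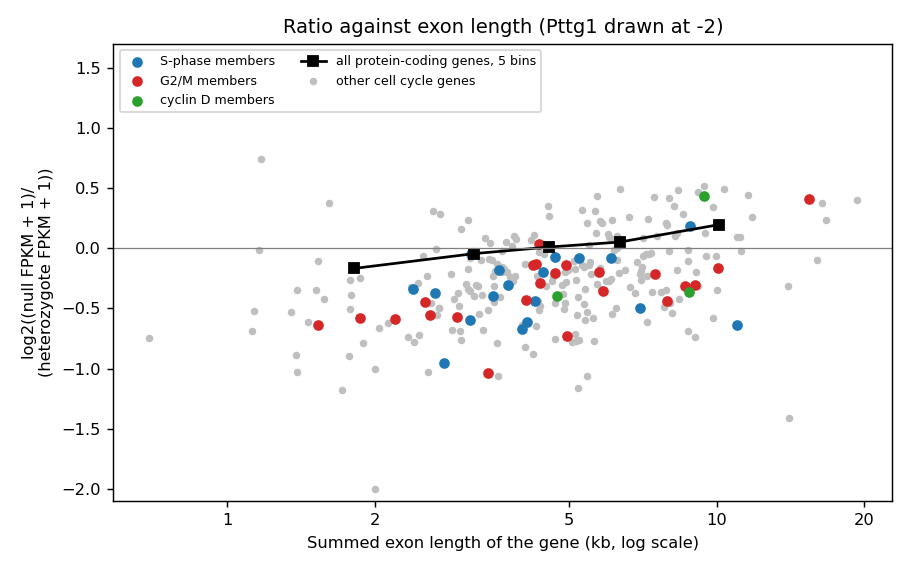
Log2 ratio of null to heterozygote FPKM, each with 1 added, against the summed exon length of the gene in kb on a log axis, for members (coloured by class), other cell cycle genes (grey) and the medians of 5 bins of all protein-coding genes (black squares joined by a line). The black line runs from -0.17 to 0.20, most member points lie below it, and Pttg1 (-3.94) is off scale and drawn short of its value.

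Some values are less certain because of neighbouring or copied sequence. The exons of 8 members overlap those of another expressed gene on the opposite strand: Mcm7, Gins2, Ccne2, Ccna2, Cdc20, Kif20a, Ccnd1 and Ccnd3. Of these, only Kif20a was above 0. Annotated pseudogenes named after Pcna, Tyms, Ccnb1, Ccnb2 and Ccnd3 stood at 1.11 FPKM or less in both libraries, with Ccnb2-ps the highest at 0.554 in null and 1.11 in heterozygote cells. Without strand, reads from overlapping genes cannot be told apart. How the authors divided reads between copies was not given in the sources used here.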

How the data were processed

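RNA-seq was used as the table of FPKM that the authors deposited. Its 2 libraries, 1 Cd248 null and 1 Cd248 heterozygous, come from cells described as tumour pericytes. Per the submitters' processing notes, the tools include Bowtie2 (2.2.3) and the build mm8; the counter, annotation and FPKM denominator were not given in the sources used here. Column names are codes, assigned to a genotype by their last letter, and Cd248 was compared with that choice. Gene IDs were matched to GENCODE M21 (GRCm38), which named 52403 of 52636; for 73 symbols with several rows the row with the highest mean was kept. No coordinates of the table's genes are given; promoter coordinates are those of the RefSeq table.

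The measure was log2((null + 1)/(heterozygote + 1)) for genes that reached 1 FPKM in 1 or both libraries, with 2-fold as the mark for counts. It understates differences of low genes. Depth came from genes with 1 annotated transcript, for which 98.6% of null and 98.5% of heterozygote values under 10 reads were whole within 0.02 reads. The other 43 members have several transcripts, so their reads were not recovered and no count model was run. The computation was tested on simulated data. Members and lists were chosen with earlier results of these data known. All members are named. Of the other lists, genes past 2-fold were named, or the highest and lowest where none was. Others (Tfdp1, Espl1, Cdkn2a, H2afz, Dek, Nuf2, Kif14, Hjurp, Sgo2a and Rrm2b) were named after their values were seen. Python 3.11.15, pandas 2.3.3, NumPy 2.4.6, SciPy 1.17.1 and Matplotlib 3.10.9 were used. Pseudocounts, minimum values, scalings, thresholds and centrings were varied.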

Additional observations from a re-analysis of the deposited data

How the results depend on the processing

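No paired analysis was possible because there is 1 library per genotype. The medians of the S-phase, G2/M and cyclin D genes stayed below 0 under the 10 alternatives run on them, between -0.46 and -0.23, and no alternative put a member past 2-fold higher. Scaling the columns to an equal sum moved the median of all genes to 0.11, and 36 of the 44 members were then below 0 and 8 above, with Mcm6, Cdc6, Tyms and E2f1 joining Pola1, Kif20a, Cenpf and Ccnd2. The count of 1 G2/M gene past 2-fold lower rests on Birc5 near the mark. This count was 0 with a pseudocount of 5, with an equal sum and with centring by chromosome or exon length. At 1.5-fold the count was 4. Without chromosomes 1 and 11 it was also 0, but that setting removes Birc5 itself, which lies on chromosome 11. The S-phase count was 5 at 1.5-fold and 1 (Rrm2) with centring by chromosome, where the S-phase median was -0.46. The S-phase minus G2/M difference was 0.094 with centring by exon length, and the cause was not tested. Of the other cell cycle genes, 9 were past 2-fold lower, 4 with a pseudocount of 5, 5 with an equal sum, 5 with centring by chromosome, and 39 lower and 1 higher at 1.5-fold. All genes higher and lower numbered 400 and 369 with a pseudocount of 5, 2022 and 1653 at 1.5-fold, and 523 lower with a minimum FPKM of 5. Centring by chromosome or length and the restriction to protein-coding genes were chosen after seeing the data. Counting error could be given for 1 member, Ccnb2, and the spread between cultures is unknown.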

Other observations

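Fen1, the endonuclease that trims flaps from lagging strand fragments, was listed at 0.293 FPKM in null cells and 0.409 in heterozygote cells, although Lig1, the ligase that then joins them, stood at 46.0 in null and 72.7 in heterozygote cells. In the annotation, 1909 bases of the Fen1 exons overlap Gm10143 on the opposite strand, which stood at 0.108 in null and 0.204 in heterozygote cells. A further 130 bases overlap Tmem258, also on the opposite strand, which stood at 74.4 in null and 86.4 in heterozygote cells. Whether these overlaps set the low value was not tested, and no level of Fen1 is drawn from these files.

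The nearest expressed genes to Pttg1 on chromosome 11 did not share its ratio of -3.94. Slu7 stood at 24.1 FPKM in null and 33.0 in heterozygote cells, Pwwp2a at 9.46 in null and 10.4 in heterozygote cells, and Ccng1 at 159 in null and 281 in heterozygote cells.

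The 5 cell cycle genes of the X chromosome had a median ratio of -0.11, with 2 above 0. The libraries differ in Xist, as given above, and the median of all X-linked genes compared was 0.01.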
